A study of Homo sapiens with 18 samples.

Results

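The E2F and DP genes encode the transcription factors that switch on DNA replication genes as cells enter S phase, and the factors that switch them off again. The 10 genes described here are E2F1, E2F2 and E2F3, which encode activators, E2F4, E2F5 and E2F6, which encode repressors with a single DNA-binding domain, E2F7 and E2F8, which encode the atypical repressors, and TFDP1 and TFDP2, which encode the DP partners. They were picked by gene symbol as members of 1 family, with earlier results of these data known, and all 10 were measured, each by 1 probe, among 17687 gene symbols on the array. The cells were OCI-AML3, a human acute myeloid leukaemia line whose genotype the labels give as wildtype. The medium was RPMI with fetal calf serum, and every culture was harvested after 24 h of treatment. The 6 DMSO cultures received the solvent, 6 cultures received RG7112 at 2 µM, and 6 received HDM201 at 500 nM. Both compounds inhibit MDM2, a ubiquitin ligase, and each was used at 1 dose and 1 time, so the compounds were not matched by dose. The results describe a single cell line in bulk culture, and the series title places the study in the setting of immunity to leukaemia after stem cell transplantation.

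An E2F of the activator or single-domain repressor class binds DNA as a dimer with a DP protein. In resting cells the retinoblastoma protein RB1 covers the activators, while its relatives RBL1 and RBL2 hold E2F4 or E2F5 on the same promoters together with the MuvB core, an assembly called DREAM. Cyclin-dependent kinases phosphorylate these pocket proteins and release the activators. E2F6 lacks the region that pocket proteins bind and works with a Polycomb complex, PRC1.6. E2F7 and E2F8 bind DNA through tandem DNA-binding domains without a DP partner and repress E2F target genes late in S phase. CDKN1A encodes p21, an inhibitor of these kinases that keeps the pocket proteins active.

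Replicates 1 to 3 and replicates 4 to 6 are treated as 2 sets here, because earlier work on these arrays found that they stand apart in every group. The labels call all replicates biological and do not say what the sets are or how cultures were separated, so the p-values cover the spread among these samples, which may be technical. RG7112 replicate 3 had a narrower signal range than the other arrays (interquartile range 3.45 against 3.70 to 3.91), and results that lean on it are also given without it. The medians of the arrays ran from 6.44 to 6.57, and precision is limited by how many arrays there are. Of 9 markers of a myeloid leukaemia line 7 were measured: LYZ (mean log2 signal 12.9), PTPRC (11.3), SPI1 (10.5), ANPEP (9.40), CSF3R (9.39) and MEIS1 (8.48) were well above the median probe mean of 6.51, while MPO (5.45) was below it. The T cell markers CD3D, CD3E, CD3G and CD2 had means of 3.67 to 4.90, the B cell markers MS4A1 and CD79A 3.76 and 6.91, the erythroid genes HBB and ALAS2 4.99 and 5.10, and EPCAM, KRT19 and COL1A1 4.16, 5.91 and 6.46. The treatment was checked on CDKN1A, which rose by 3.97 ± 0.33 (SE) on the log2 scale with RG7112 and 4.10 ± 0.33 with HDM201 (adjusted p = 9.07e-08 and 2.28e-08).

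The promoters are shown first because the genes of this family regulate one another. RefSeq promoter windows on GRCh38.p14, from 250 bases before to 50 after an annotated start, were searched for E2F1, E2F2, E2F3, E2F4, E2F6, E2F7, TFDP1 and TFDP2. No window of E2F5 or E2F8 was searched, which does not show that these genes lack one. E2F3 has 2 such windows and TFDP2 has 3, which gives 11 windows for 8 genes. The E2F words TTTCCCGC, TTTCGCGC, TTTGCCGC and TTTGGCGC were searched on both strands. The 250 upstream bases of 4 windows with a match, and of E2F7, which has none and whose transcript moved the other way, are printed 5′ to 3′ on the strand of the gene with matches in capitals.
E2F1 (chr20:33686386-33686635, minus strand): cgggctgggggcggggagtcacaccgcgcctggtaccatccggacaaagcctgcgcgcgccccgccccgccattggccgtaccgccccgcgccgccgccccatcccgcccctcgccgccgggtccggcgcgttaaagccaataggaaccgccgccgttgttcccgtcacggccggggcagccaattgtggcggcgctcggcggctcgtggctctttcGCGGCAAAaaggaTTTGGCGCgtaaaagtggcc
E2F2 (chr1:23531234-23531483, minus strand): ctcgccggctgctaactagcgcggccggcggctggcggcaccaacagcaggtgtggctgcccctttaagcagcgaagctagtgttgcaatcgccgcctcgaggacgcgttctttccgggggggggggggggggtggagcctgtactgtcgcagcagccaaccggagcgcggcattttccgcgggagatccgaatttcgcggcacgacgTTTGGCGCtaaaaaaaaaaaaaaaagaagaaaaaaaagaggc
E2F3, upstream start (chr6:20401629-20401878, plus strand): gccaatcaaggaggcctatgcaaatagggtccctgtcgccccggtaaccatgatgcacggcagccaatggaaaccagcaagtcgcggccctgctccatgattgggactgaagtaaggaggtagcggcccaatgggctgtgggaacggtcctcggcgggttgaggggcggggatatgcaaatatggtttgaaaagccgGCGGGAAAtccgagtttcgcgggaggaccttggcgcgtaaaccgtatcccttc
TFDP1 (chr13:113584503-113584752, plus strand): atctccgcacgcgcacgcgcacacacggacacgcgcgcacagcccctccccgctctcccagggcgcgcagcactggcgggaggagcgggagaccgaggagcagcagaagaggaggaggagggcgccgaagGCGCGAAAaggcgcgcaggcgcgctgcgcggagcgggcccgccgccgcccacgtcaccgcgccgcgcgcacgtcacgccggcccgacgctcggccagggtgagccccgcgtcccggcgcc
E2F7 (chr12:77065570-77065819, minus strand): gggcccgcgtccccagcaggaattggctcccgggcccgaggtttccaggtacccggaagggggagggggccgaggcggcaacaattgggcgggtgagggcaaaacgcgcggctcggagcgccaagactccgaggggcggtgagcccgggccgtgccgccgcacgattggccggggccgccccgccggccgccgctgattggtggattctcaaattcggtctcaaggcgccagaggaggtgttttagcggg

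An E2F word was present in 3.31% of all 35116 windows of this length. E2F1 held 2 matches, at bases -33 to -26 (TTTGCCGC on the opposite strand) and -20 to -13 (TTTGGCGC). E2F2 held 1 at -42 to -35, the upstream start of E2F3 held 1 at -53 to -46 (TTTCCCGC on the opposite strand), and TFDP1 held 1 at -120 to -113 (TTTCGCGC on the opposite strand). These letters were not found in the windows of the downstream E2F3 start, E2F4, E2F6, E2F7 or TFDP2. Their absence did not go with 1 direction, since E2F7 rose and TFDP2 fell with RG7112. The base composition of the windows differs, with 73.3% G and C in E2F1, 59.7% in E2F2, 70.7% in E2F7 and 79.7% in TFDP1 against a median of 58.7% over all windows. A CCAAT box (the word CCAAT, in 34.6% of all windows) occurred 4 times in E2F7, 4 times at the upstream E2F3 start and 3 times in E2F1. The cell cycle homology region word TTTGAA, in 15.2% of all windows, occurred once at the upstream E2F3 start and once in each of 2 TFDP2 windows. No E2F match overlapped a match of another motif. A match describes letters and does not show that a factor binds there. Nor does the lack of these exact words show that a promoter has no E2F site.

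**Figure D1:**
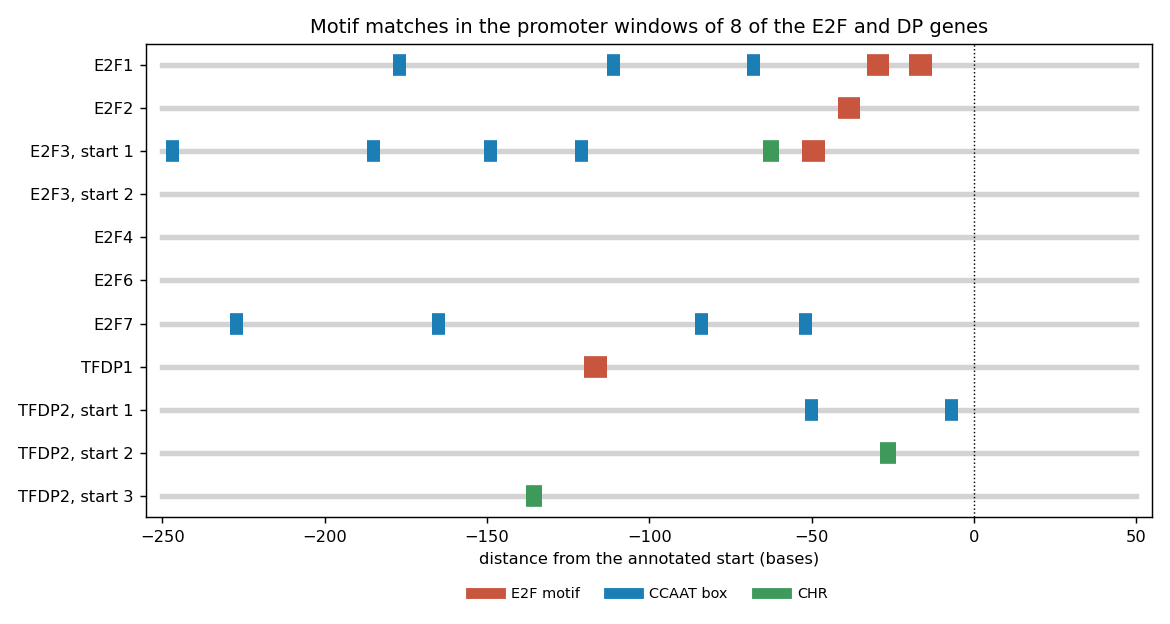
Matches of 3 motifs in the RefSeq promoter windows of 8 of the E2F and DP genes, by distance in bases from the annotated start (dotted line), both strands together. E2F words lie close to the start in E2F1, E2F2 and the upstream E2F3 window (-53 to -13) and farther upstream in TFDP1 (-120 to -113), and E2F7 has 4 CCAAT boxes and no E2F word.

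A gene is said to have risen or fallen when its limma p was under 0.05 after Benjamini-Hochberg adjustment across the 21448 probes. With RG7112, E2F7 rose, 6 genes fell (E2F1, E2F2, E2F3, E2F8, TFDP1 and TFDP2) and 3 did not pass. With HDM201, E2F7 rose, 5 fell (the same without TFDP2) and 4 did not pass. Over all probes 7.90% rose and 9.61% fell with RG7112, and 9.16% rose and 9.64% fell with HDM201. All 3 activators fell with either compound, and none of the 3 single-domain repressors passed in either comparison when the replicate sets were left out of the model. With the set as a block E2F5 fell with either compound (adjusted p = 2.90e-05 and 2.16e-05) and TFDP2 fell with HDM201 (adjusted p = 0.0466), so that 7 of the 10 genes fell with each compound, against 11.4% and 11.0% of all probes. The median change of the activators was -0.57 with RG7112 and -0.73 with HDM201, and that of E2F4, E2F5 and E2F6 was -0.20 and -0.12. The classes overlapped, since the E2F5 difference of -0.66 exceeded the E2F3 change with either compound and the E2F2 change with RG7112 (-0.57). The difference between the classes was not tested. The median over all probes was 0.03 and 0.02. Leaving out RG7112 replicate 3 gave the same counts for RG7112, and TFDP2 then also fell with HDM201 (adjusted p = 0.0177).

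**Figure D2:**
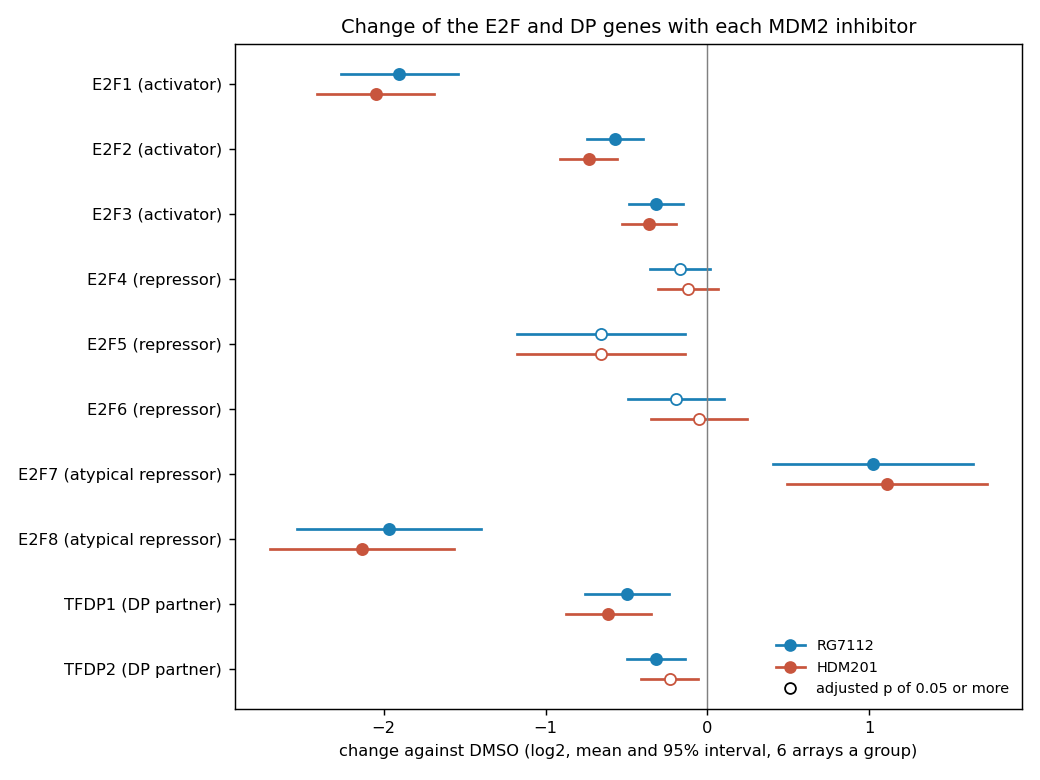
Change of each E2F and DP gene with RG7112 (blue) and HDM201 (red) against DMSO, as the difference of log2 group means with its 95% interval, 6 arrays a group; open points did not pass. E2F1 and E2F8 lie near -2, E2F7 lies near 1, and the open points belong to E2F4, E2F5, E2F6 and, with HDM201, TFDP2.

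The activators, which drive entry into S phase, fell to different degrees, and E2F1 fell furthest of them. Its log2 signal ranged from 7.34 to 8.06 on the DMSO arrays (median 7.62), from 5.27 to 6.26 with RG7112 (median 5.71) and from 5.20 to 6.27 with HDM201 (median 5.66). Every treated array lay at least 1 log2 unit below the lowest DMSO array. The group means were 7.68 ± 0.28, 5.77 ± 0.33 and 5.63 ± 0.38 (SD, n = 6). E2F1 fell by 1.90 ± 0.17 (SE) with RG7112, which is 3.74-fold (adjusted p = 2.54e-07), and by 2.05 ± 0.17 with HDM201, which is 4.14-fold (adjusted p = 4.62e-08). Within replicates 1 to 3 the changes were -2.04 and -2.37, and within 4 to 6 they were -1.76 and -1.73. In bulk RNA, fewer cells that express E2F1 and less of its transcript per cell cannot be told apart, here or for the other genes.

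E2F2, a close relative of E2F1, changed less and with little spread. Its DMSO arrays lay between 6.01 and 6.16 (median 6.03), RG7112 arrays between 5.29 and 5.64 (median 5.53) and HDM201 arrays between 5.16 and 5.59 (median 5.30). No treated array reached the DMSO range. E2F2 fell by 0.57 ± 0.08 with RG7112 (1.49-fold, adjusted p = 5.22e-05) and by 0.73 ± 0.08 with HDM201 (1.66-fold, adjusted p = 1.62e-06). The changes within the sets were -0.56 and -0.58 with RG7112, and -0.86 and -0.61 with HDM201.

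E2F3 encodes the third activator, read from 2 annotated starts that give a long and a short protein, and the single probe does not separate them here. Its signal was 7.69 to 8.12 with DMSO (median 7.97), 7.51 to 7.80 with RG7112 (median 7.62) and 7.42 to 7.70 with HDM201 (median 7.62). The groups overlapped only through DMSO replicate 1, the lowest DMSO array at 7.69. E2F3 fell by 0.32 ± 0.08 with RG7112 (1.25-fold, adjusted p = 0.00760) and by 0.36 ± 0.08 with HDM201 (1.28-fold, adjusted p = 0.00242). Within replicates 1 to 3 alone neither change passed (-0.25, adjusted p = 0.321, and -0.35, adjusted p = 0.171). Within replicates 4 to 6 the changes were -0.39 and -0.37, and both passed.

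**Figure D3:**
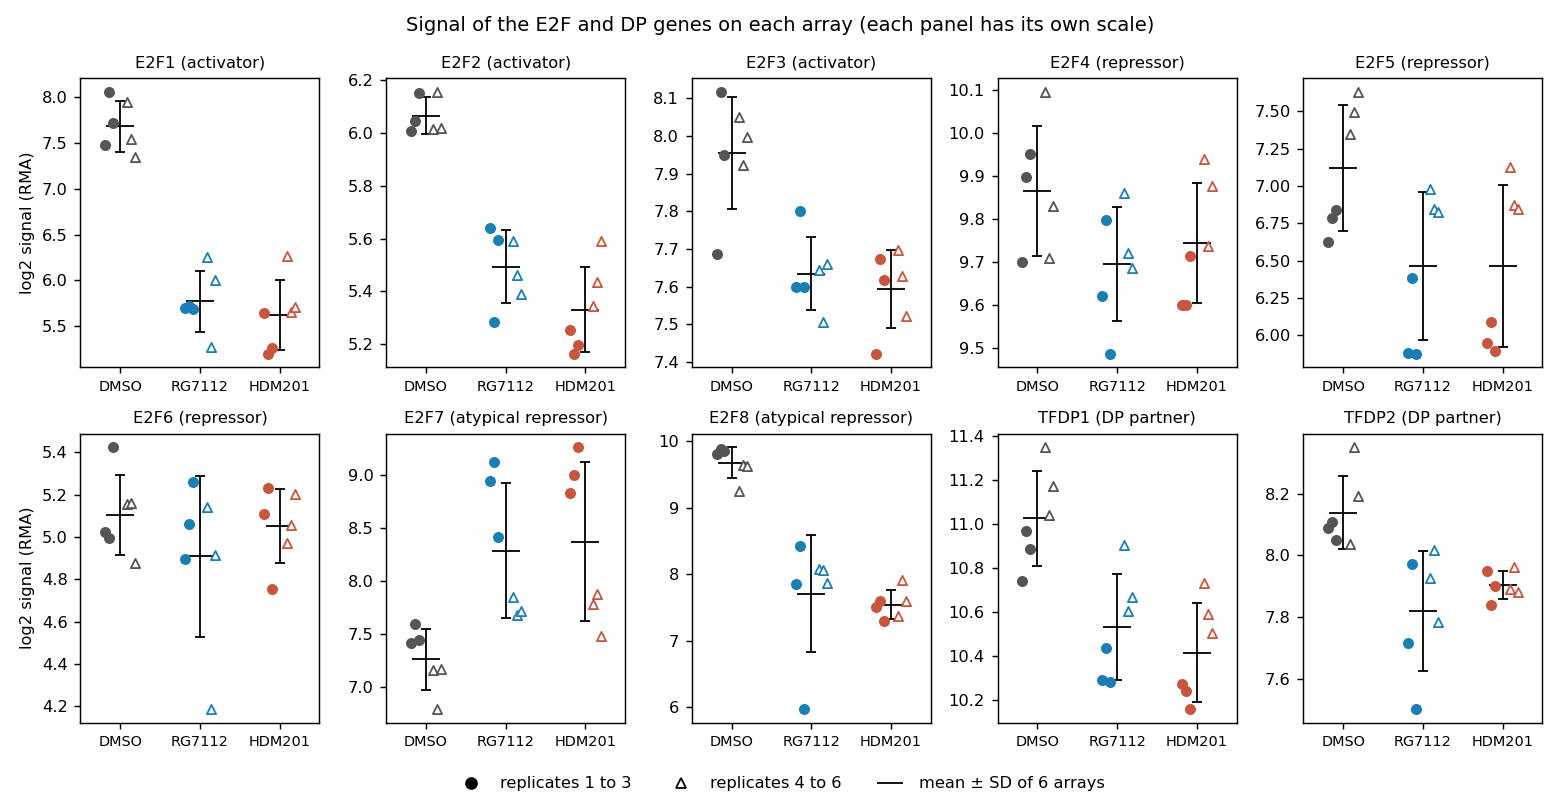
Log2 signal of each of the 10 genes on every array in the DMSO, RG7112 and HDM201 groups, with filled circles for replicates 1 to 3, open triangles for 4 to 6, and lines for the mean ± SD of 6 arrays; each panel has its own scale. E2F1, E2F2 and E2F8 are lower on every treated array, E2F5 and E2F7 separate by replicate set, and RG7112 replicate 3 is the low point of E2F8 at 5.97.

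Among the single-domain repressors, E2F4, the main partner of RBL1 and RBL2 in DREAM, was close to level. Its signal was 9.70 to 10.1 with DMSO (median 9.86), 9.49 to 9.86 with RG7112 (median 9.70) and 9.60 to 9.94 with HDM201 (median 9.73), and the groups overlapped broadly. The difference from DMSO was -0.17 ± 0.09 with RG7112 (95% interval -0.35 to 0.02, adjusted p = 0.205) and -0.12 ± 0.09 with HDM201 (-0.30 to 0.06, adjusted p = 0.420). The RG7112 interval holds the decrease measured for E2F3 (0.32), so the data do not show that E2F4 stayed level.

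E2F5, the other repressor that pairs with RBL1 and RBL2, depended on the replicate set. With DMSO it lay at 6.63 to 6.84 in replicates 1 to 3 and at 7.35 to 7.63 in replicates 4 to 6. With RG7112 these ranges were 5.88 to 6.38 and 6.83 to 6.98, and with HDM201 they were 5.90 to 6.09 and 6.85 to 7.13. The treated arrays of replicates 4 to 6 therefore lay among the DMSO arrays of replicates 1 to 3 or above them, while within each set every treated array was below every DMSO array. Over all arrays the difference was -0.66 ± 0.25 with RG7112 (adjusted p = 0.0754) and -0.66 ± 0.25 with HDM201 (adjusted p = 0.0731), and neither passed. With the set as a block the same differences had an SE of 0.09 and passed. The changes within replicates 1 to 3 were -0.70 and -0.77 (adjusted p = 0.0147 and 0.00690), and within 4 to 6 they were -0.61 and -0.54 (adjusted p = 0.00451 and 0.00788).

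E2F6, the pocket-independent repressor of PRC1.6, had a low signal. It ranged from 4.88 to 5.42 with DMSO (median 5.09), from 4.19 to 5.26 with RG7112 (median 4.99) and from 4.75 to 5.23 with HDM201 (median 5.08), against a lower quartile of 4.65 over all probe means. The groups overlapped almost entirely. The differences were -0.20 ± 0.14 (95% interval -0.49 to 0.10, adjusted p = 0.373) and -0.05 ± 0.14 (-0.35 to 0.24, adjusted p = 0.862). RG7112 replicate 5 was the lowest array at 4.19, and without it the RG7112 difference was -0.05 (adjusted p = 0.795).

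The atypical repressors moved in opposite directions. E2F7, which represses E2F1 among other targets, ranged from 6.79 to 7.60 with DMSO (median 7.29), from 7.68 to 9.12 with RG7112 (median 8.13) and from 7.48 to 9.26 with HDM201 (median 8.35). All RG7112 arrays were above all DMSO arrays, and with HDM201 only replicate 6, at 7.48, lay within the DMSO range. E2F7 rose by 1.02 ± 0.30 with RG7112 (2.03-fold, adjusted p = 0.0195) and by 1.11 ± 0.30 with HDM201 (2.15-fold, adjusted p = 0.0101). Leaving out RG7112 replicate 1 ended the RG7112 call (0.89, adjusted p = 0.0540). With the set as a block both passed more clearly (SE 0.15, adjusted p = 3.61e-05 and 1.04e-05).

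Within the sets E2F7 gave changes of unlike size, but the test of their difference did not pass. In replicates 1 to 3 it went from 7.41 to 7.60 with DMSO to 8.41 to 9.12 with RG7112 and 8.83 to 9.26 with HDM201, changes of 1.34 (2.53-fold) and 1.54 (2.92-fold). In replicates 4 to 6 it went from 6.79 to 7.17 with DMSO to 7.68 to 7.85 and 7.48 to 7.87, changes of 0.71 (1.63-fold) and 0.67 (1.59-fold). In each set every treated array was above every DMSO array. The change in replicates 1 to 3 exceeded that in 4 to 6 by 0.63 ± 0.24 with RG7112 and 0.87 ± 0.24 with HDM201 (adjusted p = 0.761 and 0.306). When limma down-weighted variable arrays, both passed (0.78 and 0.90, adjusted p = 0.0246 and 0.0212).

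E2F8, which represses E2F targets together with E2F7, fell. It ranged from 9.25 to 9.88 with DMSO (median 9.72), from 5.97 to 8.42 with RG7112 (median 7.96) and from 7.29 to 7.90 with HDM201 (median 7.55). No treated array came near the DMSO range. E2F8 fell by 1.97 ± 0.27 with RG7112 (3.91-fold, adjusted p = 2.67e-05) and by 2.13 ± 0.27 with HDM201 (4.38-fold, adjusted p = 6.28e-06). The array at 5.97 was RG7112 replicate 3, and without it the RG7112 change was -1.62 (adjusted p = 8.53e-08). Within replicates 1 to 3 the changes were -2.43 and -2.38, and within 4 to 6 they were -1.50 and -1.88. The -2.43 leans on RG7112 replicate 3, since replicates 1 and 2 lay at 7.85 and 8.42.

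The DP partners, without which the activators and single-domain repressors do not bind DNA stably, changed modestly. TFDP1 ranged from 10.7 to 11.4 with DMSO (median 11.0), from 10.3 to 10.9 with RG7112 (median 10.5) and from 10.2 to 10.7 with HDM201 (median 10.4). Replicates 1 to 3 were the lower arrays in each group, and all HDM201 arrays lay below all DMSO arrays. TFDP1 fell by 0.50 ± 0.13 with RG7112 (1.41-fold, adjusted p = 0.00800) and by 0.61 ± 0.13 with HDM201 (1.53-fold, adjusted p = 0.00116). The changes within replicates 1 to 3 were -0.53 and -0.64, and within 4 to 6 they were -0.46 and -0.58.

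TFDP2 had 8.04 to 8.35 with DMSO (median 8.10), 7.50 to 8.02 with RG7112 (median 7.86) and 7.84 to 7.96 with HDM201 (median 7.90). Neither treated group overlapped with DMSO, although the gaps were small. TFDP2 fell by 0.32 ± 0.09 with RG7112 (1.25-fold, adjusted p = 0.0121), and the difference was -0.25 without RG7112 replicate 3 (adjusted p = 0.0200). Within either set alone the RG7112 change did not pass (-0.35, adjusted p = 0.142, and -0.28, adjusted p = 0.129). With HDM201 the difference was -0.23 ± 0.09 and just missed the threshold (adjusted p = 0.0622), and with the set as a block it passed (adjusted p = 0.0466).

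Counting only whether arrays overlap, without a model, 5 genes were apart from DMSO with each compound. With RG7112 these were E2F1, E2F2, E2F7, E2F8 and TFDP2, and 9.90% of all probes were apart. With HDM201 they were E2F1, E2F2, E2F8, TFDP1 and TFDP2, and 13.6% of all probes were apart. Within both sets and in the same direction, 7 genes were apart with RG7112 and 8 with HDM201, against 13.5% and 18.3% of all probes. E2F4 and E2F6 were apart in neither comparison, and E2F3 was apart in both sets only with HDM201.

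The sets were also compared directly. In the DMSO cultures E2F5 was lower in replicates 1 to 3 than in 4 to 6 by 0.74 ± 0.14 (mean 6.75 against 7.49, adjusted p = 0.0188), and 0.303% of all probes differed in this way. The call had few arrays behind it and was lost without DMSO replicate 1, 2, 3, 5 or 6 (adjusted p from 0.0653 to 0.145). No other gene of the family passed, with E2F7 higher by 0.44 (adjusted p = 0.559) and TFDP1 lower by 0.32 (adjusted p = 0.478) in replicates 1 to 3. The response to a compound differed between the sets for none of the 10 genes by limma, against 0.0373% of all probes for RG7112 and 0.149% for HDM201. At an unadjusted limma threshold of 0.05, E2F7 was the single gene of the family that differed, and it did so for either compound.

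**Figure D4:**
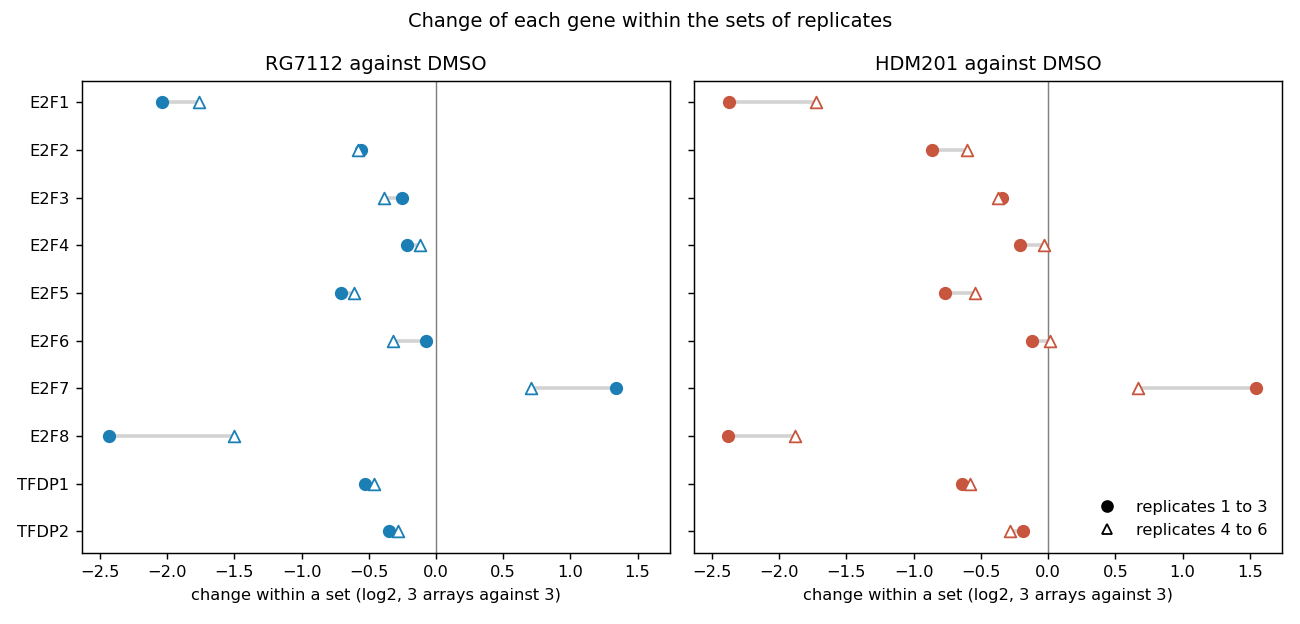
Change of each gene against DMSO within replicates 1 to 3 (filled circles) and within replicates 4 to 6 (open triangles), 3 arrays against 3, on the log2 scale. The direction is shared by the sets for 9 of the 10 genes with both compounds, and E2F6 is near 0 with HDM201. The widest gaps are those of E2F8 with RG7112 and E2F7 with HDM201. The E2F8 gap leans on 1 array, RG7112 replicate 3 at 5.97.

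HDM201 at 500 nM and RG7112 at 2 µM were set side by side, although the doses were not matched. No gene of the family differed between them, and 0% of all probes passed in limma, with 749 probes and none of the 10 genes at an unadjusted p under 0.05. The difference for E2F1 was -0.15 (95% interval -0.51 to 0.22), for E2F2 -0.16 (-0.34 to 0.01) and for E2F3 -0.04 (-0.21 to 0.13). For E2F7 it was 0.08 (-0.53 to 0.70) and for E2F8 -0.16 (-0.73 to 0.40). For TFDP1 and TFDP2 it was -0.12 (-0.38 to 0.15) and 0.08 (-0.09 to 0.26), and for E2F4, E2F5 and E2F6 it was 0.05 (-0.14 to 0.23), -0.00072 (-0.52 to 0.52) and 0.14 (-0.15 to 0.44). The intervals of E2F5, E2F7 and E2F8 are wide, so the data do not show that the compounds act alike on them.

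The genes around the family were read from lists by role, and the counts below stand beside the same background shares. Among the pocket proteins and the MuvB core, 4 of 8 fell with either compound and the list medians were -0.20 and -0.29. RBL1, the pocket protein p107 and itself an E2F target, fell (-0.99 ± 0.13 and -1.16 ± 0.13, adjusted p = 1.05e-05 and 8.94e-07). The MuvB subunits LIN9 (-0.92 and -1.18) and LIN54 (-0.70 and -0.80) fell too. LIN52, another MuvB subunit, differed by -0.16 and -0.21 and did not pass. RB1 rose with HDM201 by 0.53 ± 0.13 (adjusted p = 0.00458), and with RG7112 it differed by 0.30 ± 0.13 without passing (adjusted p = 0.120). Neither call was stable. Without RG7112 replicate 3 RB1 rose with RG7112 too (0.38, adjusted p = 0.0299), as it did with array weights (adjusted p = 0.0307) and after a further quantile normalization (adjusted p = 0.0416). Within replicates 4 to 6 alone its HDM201 change was 0.28 and did not pass (adjusted p = 0.135), against 0.78 within 1 to 3.

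Upstream of the pocket proteins, 4 of 8 G1 cyclins and kinases fell with either compound and none rose. CCNE2, cyclin E2, fell (-1.85 and -2.10), as did CCNE1 (-0.97 and -1.07) and their kinase CDK2 (-1.15 and -1.43). CDK4, the partner of the D cyclins, fell (-0.50 and -0.47), and CCND1 differed by 0.12 and 0.30 without passing. Of 6 measured CDK inhibitors 3 rose with either compound and none fell. CDKN1A rose 15.6-fold and 17.2-fold, CDKN2B by 0.84 and 1.04, and CDKN2A by 0.62 and 0.88 on the log2 scale. CDKN1C differed by 0.20 and 0.01 and did not pass. Of 3 genes that act in the turnover of E2F proteins, CCNF (-1.18 and -1.21) and SKP2 (-0.96 and -1.02) fell and FZR1 did not pass.

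Downstream, 22 of 23 measured S-phase targets of the E2F factors fell with either compound, against 9.61% and 9.64% of all probes. The list medians were -1.29 and -1.58. GINS2, a subunit of the replicative helicase, fell (-1.79 and -2.03), and so did CDC6, which loads the helicase (-1.65 and -2.12). The checkpoint kinase gene CHEK1 fell (-1.69 and -2.01), as did MYBL2, which joins MuvB in place of E2F4 during S phase (-1.67 and -1.89). The exception was PCNA, the sliding clamp of the replicative polymerases, which differed by 0.14 ± 0.10 with either compound (adjusted p = 0.398 and 0.407). Without RG7112 replicate 3 the counts stayed at 22 of 23, and within a single set they were 20 to 22. Of the 21448 probes, 1080 fell with RG7112 within replicates 1 to 3 and 1159 within 4 to 6. With HDM201 these numbers were 1337 and 1297.

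Of 4 measured targets that tie E2F1 to cell death, none passed as higher. With either compound 1 fell, against 9.61% and 9.64% of all probes. It was TP73, which E2F1 can induce and which fell (-0.52 and -0.66). BCL2L11, which encodes the apoptosis activator BIM, differed by 0.23 and 0.19 and did not pass (adjusted p = 0.0805 and 0.155). With the set as a block it rose with either compound (adjusted p = 0.0146 and 0.0396). Of 8 measured PRC1.6 partners of E2F6, 2 fell with each compound and none rose. CBX3 fell (-0.44 and -0.47). L3MBTL2 passed with RG7112 (-0.44, adjusted p = 0.0347) and missed the threshold with HDM201 (-0.38, adjusted p = 0.0673). Neither result was stable: the RG7112 call was lost under 8 alternatives, and the HDM201 difference passed under 6. PCGF6 missed it with RG7112 (-0.15, adjusted p = 0.433) and passed with HDM201 (-0.46, adjusted p = 0.00839). Without RG7112 replicate 3 the count was 1 of 8 with RG7112 and 3 of 8 with HDM201. RYBP, which belongs to the same complex, differed by 0.11 and 0.20 without passing. Of 3 meiosis genes that are silenced through E2F6, STAG3 fell with HDM201 (-0.32, adjusted p = 0.00659), SLC25A31 differed by -0.02 and -0.11, and none rose. SLC25A31 and SMC1B were dim, with DMSO means of 3.73 and 3.72 against a lower quartile of 4.65 over all probe means. How far these 2 could fall is not known. Within either set alone the STAG3 change did not pass (-0.28, adjusted p = 0.174, and -0.36, adjusted p = 0.0776). Of the other named genes, CDKN2A with RG7112 (adjusted p = 0.0560) and PCGF6 with HDM201 (0.137) lost their calls within replicates 1 to 3 alone. LIN54 (0.0948) and TP73 (0.0760) with RG7112, CBX3 with HDM201 (0.0625) and CDK4 with either compound (0.0631 and 0.0716) lost theirs within replicates 4 to 6 alone. With HDM201, LIN52 gained a call as lower without HDM201 replicate 4 (-0.29, adjusted p = 0.0357). CCND1 gained one as higher with HDM201 without DMSO replicate 6 (0.36, adjusted p = 0.0487).

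**Figure D5:**
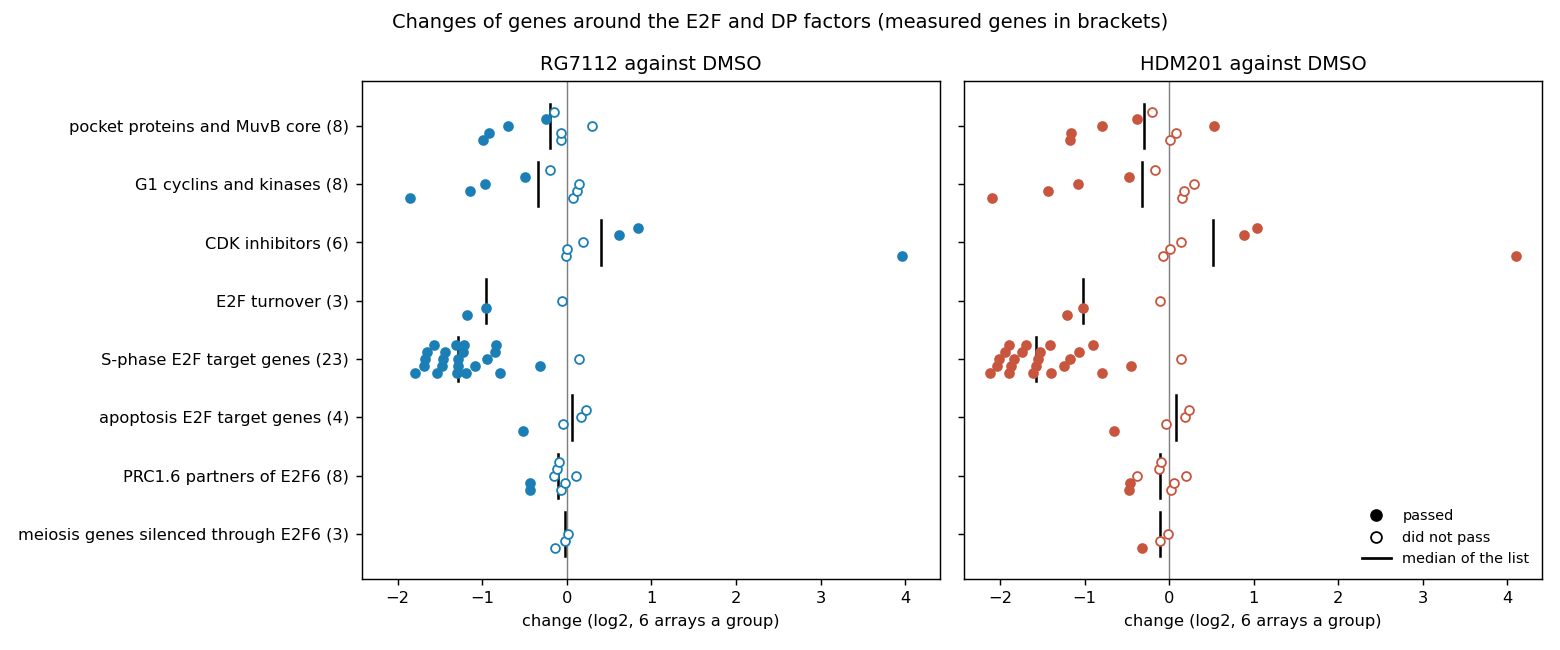
Change of each measured gene in 8 lists around the E2F and DP factors with RG7112 (left) and HDM201 (right) against DMSO, on the log2 scale with 6 arrays a group; filled points passed, open points did not, and vertical lines are list medians. The S-phase targets lie between -2.12 and 0.14 with 1 open point, PCNA, and CDKN1A is the point near 4.

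Finally, the genes with profiles most like E2F1 and E2F7 were listed, by the root mean square difference over the 18 arrays after each gene was centred on its DMSO mean. For E2F1 these were GINS2 (0.24 log2 units), WDR76 (0.26), CDC6 (0.27), EXO1 (0.31) and CCNE2 (0.31). For E2F7 they were F8 (0.18), SPATA18 (0.22), CADM1 (0.24), ALDH7A1 (0.25) and STK17A (0.26). All points share the same arrays and the same replicate sets, so the measure is a description and carries no p.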

How the data were processed

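RNA of 18 OCI-AML3 cultures was measured on 1 array each, in 3 groups of 6 taken from the labels. The values the authors deposited are log2 signals from RMA, run in the oligo package per the submitters' processing notes. RMA subtracts background, equalises the quantiles of all arrays and reduces each probe set to 1 value. Quantile normalization assumes a shared signal distribution and can shrink changes that run one way over many genes. The software versions and the build were not given in the sources used here. Of 21448 probes, 17709 carry 1 gene symbol in a platform table, 0 several and 3739 none here.

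The fit used limma 3.58.1 (R 4.3.3), 1 mean for each group, all 18 arrays and eBayes at its defaults. Benjamini-Hochberg adjustment ran across the 21448 probes, with a threshold of 0.05. SEs and 95% intervals come from the same model, and folds are powers of the log2 differences. Further fits gave each group and replicate set its own mean, or took the set or the replicate number as a block. The script was tested on simulated data. The other alternatives were array weights, another prior, filters on dim probes, rescaling of arrays, fewer arrays, and each array left out in turn.

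A symbol with several probes takes the one with the highest mean. The members and the gene lists were chosen with earlier results of these data known. From each list the text names up to 4 genes that passed with either compound and the 1 with the largest mean difference that passed with neither, plus CDKN1A as a treatment check. Promoter windows are RefSeq sequences of GRCh38.p14, matched by symbol.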

Additional observations from a re-analysis of the deposited data

Results flagged for a closer look

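In 2 of 30 groups of 6 arrays, 1 array stood far from the other 5, and chance flags about 1 group in 20. E2F8, an atypical repressor, had a log2 signal of 5.97 on RG7112 replicate 3 against 7.85 to 8.42 on the other RG7112 arrays, whose mean was 8.06. The same array had the narrowest signal range of all arrays, with an interquartile range of 3.45, and the part of this in the E2F8 value was not tested. E2F6, the repressor of PRC1.6, had 4.19 on RG7112 replicate 5 against 4.90 to 5.26 on the others, whose mean was 5.05.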

How the results depend on the processing

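Over 3741 pairs of a single gene and an alternative, 3678 kept their side of the threshold, and in 0 did a called change turn its direction. These pairs include HDM201 against RG7112, where 0 probes passed in the main fit and no single gene changed its call. They also include fits that left out an array of the group not compared. The share therefore says little about how stable the calls against DMSO were. Differences that did not pass could change sign, as E2F6 did with HDM201 (-0.12 to 0.01) and E2F1 between the compounds (-0.33 to 0.04). E2F1, E2F2, E2F8 and TFDP1 kept their calls under every alternative run. E2F1 and E2F2 were not tested when probes whose mean over all arrays was below the median (6.51) were left out. The E2F1 mean was above that median with DMSO (7.68) and below it with RG7112 (5.77) and HDM201 (5.63). Within replicates 1 to 3 alone, with fewer arrays, 893 probes rose and 1080 fell with RG7112, and 1167 rose and 1337 fell with HDM201. Within replicates 4 to 6 alone 989 rose and 1159 fell, and 1298 rose and 1297 fell. With array weights the E2F7 change differed between the replicate sets, so that 1 gene of the family passed for each compound, against 0 without weights; the cause was not tested. When each array was left out in turn, 0 to 1 family genes rose with RG7112 (0 without RG7112 replicate 1). In the same way 0 to 1 probes were lower with HDM201 than with RG7112 (1 without HDM201 replicate 6), and 0 to 1 family genes differed between the sets of DMSO arrays. The E2F5 difference also passed without DMSO replicate 1 (adjusted p = 0.0492 and 0.0462), with RG7112 without RG7112 replicate 4 (0.0434), and with HDM201 without HDM201 replicate 4 (0.0292), with array weights (0.0265) and without probes below the median (0.0497). The TFDP2 difference with HDM201 passed under 7 alternatives, with adjusted p from 0.0164 to 0.0466. The replicate numbers are not known to pair the cultures: 16 of 18 pairs of same-numbered arrays deviated together with a correlation over 0.1 (median 0.23, range 0.02 to 0.44). On the same footing, arrays of other numbers had a median correlation of 0.10 in the same set and -0.15 in the other set. With the set means removed as well, 12 of 18 same-numbered pairs were over 0.1 (median 0.14). Among the 6 arrays of another group, the best correlated one had the same number in 26 of 36 cases, with only the group means removed. With the replicate block E2F5 passed with either compound (adjusted p = 5.55e-05 and 4.08e-05) and so did TFDP2 with HDM201 (0.0421). The arrays give no detection calls, so how far the dim E2F6 probe could fall is not known.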
